A study of Homo sapiens with 6 samples.

Results

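SOX2, SOX4, SOX9, SOX12 and SOX13 encode transcription factors of the SOX family, which bind DNA through a high mobility group (HMG) box. These 5 genes were chosen by name, with earlier results of these data known. Their symbols were matched to the Ensembl gene IDs of the deposited files, and each gene was found once among 22091 gene IDs. Their RNA was counted in HCCLM3, MHCC97H and MHCC97L, established human hepatocellular carcinoma lines. A library was made from each line after 4 h with TGF-β1 ligand at 2.5 ng/mL and another from its 4 h control, so that 3 TGF-β1 libraries stand against 3 control libraries. No genetic change is named in the labels, all lines were kept in DMEM with 10% serum, and each line is a selected tumour population and not a set of independent tumours. MHCC97H and MHCC97L are sister lines from the same parental tumour line with high and low metastatic capacity, and HCCLM3 came from lung metastases in the same lineage, so the 3 lines share an origin.

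SOX proteins bend DNA at short AT-rich sites and usually act with a partner factor, and the family is divided into groups by the similarity of the HMG box. SOX2, of group B1, works with POU5F1 (OCT4) to hold pluripotency in stem cells. SOX4 and SOX12 belong to group C, expressed in many progenitor cells, and SOX4 is a known target of TGF-β signalling in epithelial-mesenchymal transition. SOX9, of group E, drives cartilage formation and in the liver marks bile duct cells and progenitors. SOX13, of group D, has no transactivation domain of its own and binds the WNT-pathway factor TCF7 in mouse T cells.

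In genome build GRCh38, SOX2 (ENSG00000181449.3) lies on the plus strand at chr3:181711924-181714436 and has a single exon. SOX4 (ENSG00000124766.6) is a gene of 1 exon on the plus strand at chr6:21592768-21598619. SOX9 (ENSG00000125398.5) spans chr17:72121020-72126420, SOX12 (ENSG00000177732.8) spans chr20:325595-330224 and SOX13 (ENSG00000143842.14) spans chr1:204073115-204127743, all on the plus strand. In GENCODE 29, SOX2 sits between exons of the longer RNA gene SOX2-OT on the same strand. An exon of the opposite-strand gene AL512380.2 overlaps SOX4. SOX9-AS1 and NRSN2-AS1 run opposite to SOX9 and SOX12 with no shared exon bases, and SOX13 has no overlapping gene. SOX2-OT, AL512380.2, SOX9-AS1 and NRSN2-AS1 had no ID among the 22091 gene IDs read here, so their counts were not analysed. The labels do not say whether the libraries kept strand, so exon reads of AL512380.2 cannot be told apart from those of SOX4 where they overlap. SOX2, SOX9 and SOX12 share no annotated exon bases with the overlapping gene, so only its unspliced reads could be mixed with theirs. For SOX2-OT, on the same strand as SOX2, strand would not separate them. Counts of the 5 genes were whole numbers in all 6 libraries. Since no count was at hand for the overlapping genes, whole numbers cannot show whether their reads were included.

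RefSeq promoter windows, which run from 250 bases before to 50 after a gene's start on GRCh38.p14, were given for 4 of the 5 genes. The 250 bases before the RefSeq start of SOX2, chr3:181711675-181711924 on the plus strand, are shown because SOX2 fell after TGF-β1. Capitals mark a CCAAT box, read here as ATTGG on the opposite strand.
SOX2: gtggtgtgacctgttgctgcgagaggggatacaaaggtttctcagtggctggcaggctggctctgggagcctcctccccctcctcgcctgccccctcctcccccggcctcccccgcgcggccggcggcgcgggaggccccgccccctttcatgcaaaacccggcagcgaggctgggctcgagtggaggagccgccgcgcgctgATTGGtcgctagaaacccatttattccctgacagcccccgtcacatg
The SOX2 window held no CAGAC (a SMAD-binding element), no ACAAT (the SOX core, or AACAAT as its longer form), no TGANTCA (AP-1) and no GGAATG (TEAD) on either strand. CAGAC or GTCTG stands in 45.3% of the 35116 promoter windows in the table, ACAAT or ATTGT in 27.4%, AACAAT or ATTGTT in 10.1%, TGANTCA in 7.71%, GGAATG or CATTCC in 14% and CCAAT or ATTGG in 34.6%. CCAAT was added to the search after the sequences had been read.

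For SOX4, which rose, RefSeq places the start downstream of the GENCODE start, so that the whole window lies inside the SOX4 exon as GENCODE draws it, and only 30-base stretches are shown. Capitals mark a GGAATG in chr6:21593561-21593590 and a GTCTG, the CAGAC element on the opposite strand, at the RefSeq start in chr6:21593735-21593764, both on the plus strand.
SOX4 GGAATG: gctctgtaaattGGAATGaggtcagatttg
SOX4 GTCTG: ggcggaattgggGTCTGctctaagctgcag
The SOX4 window also held 4 CCAAT letters over both strands, of which the one 181 bases before the RefSeq start shares bases with the GGAATG and another ends just before the GTCTG. Of the genes that did not pass the test for TGF-β1, SOX12 also held 1 CAGAC and 1 CCAAT box (as ATTGG) before its start. SOX13 held none of the letters searched. GC content was 63.3% in the SOX2 window and 49.3% in that of SOX4, with a median of 58.7% over all windows. A match of letters describes the window and does not show that a factor binds there.

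Totals of the libraries were 21257080, 23242862 and 23085194 expected counts in the TGF-β1 libraries of HCCLM3, MHCC97H and MHCC97L, and 18485041, 20407269 and 22854982 in their controls. A count of 0 allows up to 3 counts, or 0.129 to 0.159 CPM (counts relative to the TMM-scaled library total) in a library, and intervals and floors here cover counting error only. Of 14 textbook TGF-β targets, all tested, 11 rose and 2 fell after the ligand, where 7.79% and 6.65% of all genes tested did. Their median log2 change was 0.96, against -0.0029 over all 14176 genes tested. The list was drawn up with earlier results of these data known. PMEPA1 (log2 change 3.30), JUNB (2.33) and CDKN2B (1.55, without whole counts) led those that rose, and ID2 (-0.68) and ID3 (-0.51, whole in 2 of 6 libraries) fell. Among the defining liver and epithelial markers KRT8 ran from 4296 to 6575 CPM, KRT18 from 1521 to 2664 CPM and HNF4A from 79.0 to 208 CPM over the 6 libraries, but ALB reached only 22.9 CPM and TTR stayed under 1 CPM. Of the other cell types the summed marker level was 12.0 to 33.1 CPM in TGF-β1 libraries and 10.4 to 34.1 CPM in controls for 8 stellate cell and fibroblast genes, with 5 under 1 CPM throughout. LUM ran from 9.27 to 17.7 CPM, and COL3A1 and DCN reached 14.4 and 3.49 CPM. The sum of 6 endothelial genes was 11.7 to 35.9 CPM in TGF-β1 libraries and 14.2 to 41.6 CPM in controls, with CDH5 and STAB2 under 1 CPM, and that of 7 leukocyte genes was 119 to 269 CPM in TGF-β1 libraries and 134 to 234 CPM in controls. The 4 cholangiocyte genes summed to 864 to 925 CPM in TGF-β1 libraries and 567 to 840.0 CPM in controls. These sums did not overlap, as was so for 8.77% of single genes tested in this direction, but KRT7 and KRT19 each overlapped. The 4 neural genes summed to 2.13 to 8.87 CPM in TGF-β1 libraries and 2.09 to 5.53 CPM in controls. The leukocyte sum is mostly CD68 (109 to 247 CPM), with PTPRC, CD3E, CD14 and CD163 under 1 CPM. CD79A (3.26 to 17.3 CPM) and LYZ (2.57 to 4.46 CPM) were above 1 CPM in every library. The cholangiocyte sum is KRT7 and KRT19, with CFTR at 0 in all libraries and EPCAM under 1 CPM. The part of these markers in the SOX results was not tested.

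The first question is which SOX genes change after TGF-β1 in all 3 lines. SOX4 rose and SOX2 fell, in every line and in opposite directions, while SOX9, SOX12 and SOX13 did not pass the test. SOX4 averaged 279 ± 49.6 CPM with TGF-β1 and 155 ± 60.9 CPM in controls (SD, n = 3 lines each), a fold change of 1.87. SOX2 averaged 6.70 ± 2.39 CPM with TGF-β1 and 15.9 ± 7.62 CPM in controls (SD, n = 3 lines each), which is 2.32-fold lower. Of the 5 genes, 2 passed an adjusted p of 0.05, 1 higher and 1 lower, where 14.4% of all genes tested passed (7.79% higher and 6.65% lower). The 5 genes were not picked blind to these data, so that share is a background and not a test of the family. Since each line has a single library per condition, the p values for the ligand rest on how much the lines differ in response, and the labels do not name separate cultures. The edgeR fit shares that spread across the genes tested, so a p value does not measure the spread of its own gene alone. By themselves, the log2 changes of the 3 lines had an SD of 0.31 for SOX4 and 0.18 for SOX2.

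**Figure D1:**
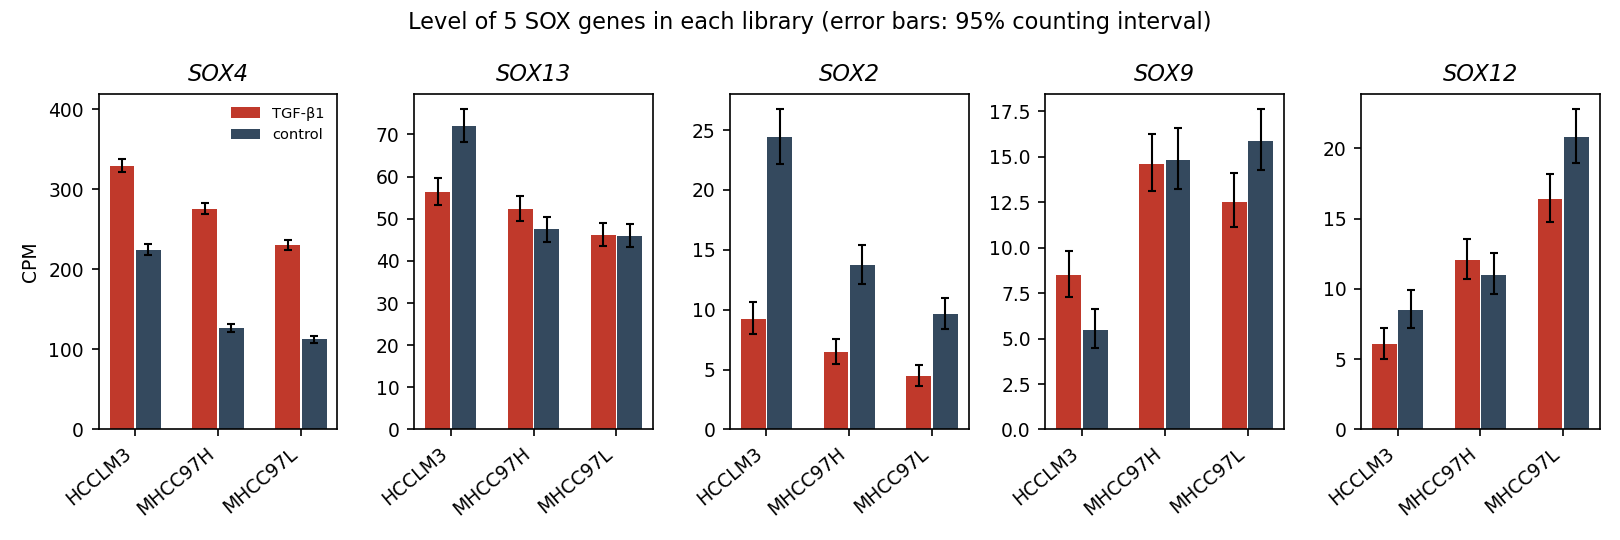
CPM of the 5 genes in each library, with the TGF-β1 library (red) left of the control library (dark blue) of each line and error bars giving the 95% Poisson counting interval; each panel has its own axis starting at 0. SOX4 was higher and SOX2 lower with TGF-β1 in HCCLM3, MHCC97H and MHCC97L.

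SOX4 had 329.6, 276 and 231 CPM in the TGF-β1 libraries of HCCLM3, MHCC97H and MHCC97L, against 224, 126 and 113 CPM in their controls. All TGF-β1 libraries stood above all controls, though the lowest TGF-β1 value, in MHCC97L, was only just above the HCCLM3 control. SOX4 and SOX2 moved the same way in 3 of 3 lines, as did 50.4% of genes tested. Ranges that do not overlap in this direction were found for 8.77% of genes tested. The log2 change was 0.90 (SE 0.111), with an adjusted p of 0.00298 by the edgeR quasi-likelihood test after Benjamini-Hochberg adjustment, and 313 of the 14176 genes had a larger positive change. By line the log2 change was 0.55 in HCCLM3 (95% counting interval 0.50 to 0.61), 1.13 in MHCC97H (1.06 to 1.19) and 1.03 in MHCC97L (0.96 to 1.10). HCCLM3, which had the highest SOX4 level without ligand, had an increase of 1.47-fold, where MHCC97H had 2.18-fold and MHCC97L 2.04-fold. Its counting interval lay apart from those of the other two lines, but with 1 library per line and condition a difference in response has no replicate check.

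SOX2 had 9.21, 6.45 and 4.45 CPM in the TGF-β1 libraries of HCCLM3, MHCC97H and MHCC97L, against 24.4, 13.7 and 9.62 CPM in their controls. All TGF-β1 libraries lay below all controls, with the highest TGF-β1 value in HCCLM3 and the lowest control in MHCC97L, and ranges apart in this direction were found for 9.19% of genes. The log2 change was -1.22 (SE 0.114), with an adjusted p of 0.000395 by the edgeR quasi-likelihood test after Benjamini-Hochberg adjustment, and 52 of 14176 genes had a lower value. SOX2 rests on 100 to 459 counts per library. By line the log2 change was -1.40 in HCCLM3 (95% counting interval -1.66 to -1.16), -1.08 in MHCC97H (-1.38 to -0.80) and -1.10 in MHCC97L (-1.47 to -0.77), and the 3 intervals overlap. Both calls were kept when any line was left out, with log2 changes of 0.79 to 1.07 for SOX4 and -1.28 to -1.10 for SOX2. Without the cell line term both calls were lost, at an adjusted p of 0.336 for SOX4 and 0.331 for SOX2 (edgeR), as line differences then count as spread.

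The ratio of SOX4 to SOX2 within a library does not depend on how libraries are scaled. Per kilobase of exon, SOX4 had 15.4, 18.4 and 22.3 times the counts of SOX2 in the TGF-β1 libraries of HCCLM3, MHCC97H and MHCC97L, against 3.95, 3.95 and 5.04 times in their controls. The lowest TGF-β1 ratio had a 95% exact binomial interval of 13.3 to 17.9 and the highest control ratio one of 4.40 to 5.81. The TGF-β1 ratio was 3.89 times the control ratio in HCCLM3, 4.65 times in MHCC97H and 4.41 times in MHCC97L. The ratio was chosen after the values were seen and is given without a test.

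**Figure D2:**
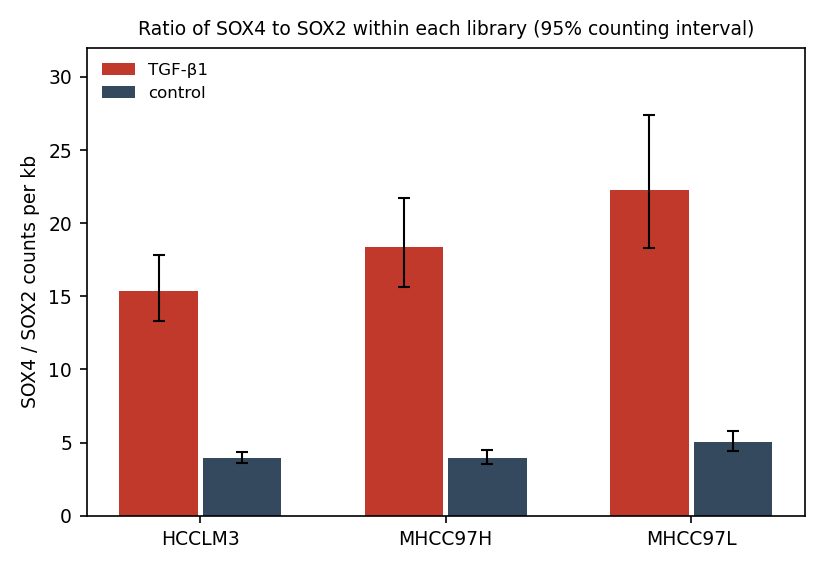
Ratio of SOX4 to SOX2 counts per kilobase of merged exon length in each library, TGF-β1 (red) left of control (dark blue), with 95% exact binomial intervals. The TGF-β1 ratios run from 15.4 to 22.3 and the control ratios from 3.95 to 5.04.

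SOX9 had 8.48, 14.6 and 12.5 CPM in the TGF-β1 libraries of HCCLM3, MHCC97H and MHCC97L, against 5.47, 14.8 and 15.9 CPM in their controls. The groups overlapped, and the lines moved in different directions. The log2 change over the lines was 0.03 (SE 0.169; adjusted p of 0.925, edgeR). By line it was 0.62 in HCCLM3 (95% counting interval 0.27 to 1.0), -0.02 in MHCC97H (-0.25 to 0.21) and -0.34 in MHCC97L (-0.57 to -0.11), so the intervals of HCCLM3 and MHCC97L lay on opposite sides of 0. The sign of the change over the lines turned under several settings, and it was -0.18 without HCCLM3.

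SOX12, the second group C gene, had 6.06, 12.1 and 16.4 CPM in the TGF-β1 libraries of HCCLM3, MHCC97H and MHCC97L, against 8.50, 11.0 and 20.8 CPM in their controls. It was lower with TGF-β1 in HCCLM3 and MHCC97L and slightly higher in MHCC97H, and the groups overlapped. The log2 change was -0.22 (SE 0.131; adjusted p of 0.295, edgeR). By line it was -0.48 in HCCLM3 (95% counting interval -0.84 to -0.14), 0.13 in MHCC97H (-0.12 to 0.39) and -0.34 in MHCC97L (-0.54 to -0.14).

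SOX13 had 56.4, 52.3 and 46.2 CPM in the TGF-β1 libraries of HCCLM3, MHCC97H and MHCC97L, against 72.0, 47.5 and 46.0 CPM in their controls. The HCCLM3 control stood above the other 5 libraries, which lay between 46.0 and 56.4 CPM. The log2 change over the lines was -0.07 (SE 0.098; adjusted p of 0.681, edgeR), and it was 0.07 without HCCLM3. By line it was -0.35 in HCCLM3 (95% counting interval -0.46 to -0.24), 0.14 in MHCC97H (0.018 to 0.26) and 0.0072 in MHCC97L (-0.12 to 0.13).

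Only SOX2 changed by 1.5-fold or more in all 3 lines. SOX4 passed that fold in MHCC97H and MHCC97L and just missed it in HCCLM3, at 1.47-fold. SOX9 passed it in HCCLM3, while SOX12 and SOX13 passed it in no line. The share of all genes past it in all 3 lines was not counted. With libraries scaled by their totals alone, the SOX9 change in HCCLM3 was 0.56 on the log2 scale, under 1.5-fold. In HCCLM3 5.92% of genes tested were at least 1.5-fold higher with TGF-β1 and 5.35% lower, in MHCC97H 7.36% and 6.2%, and in MHCC97L 5.83% and 4.75%.

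**Figure D3:**
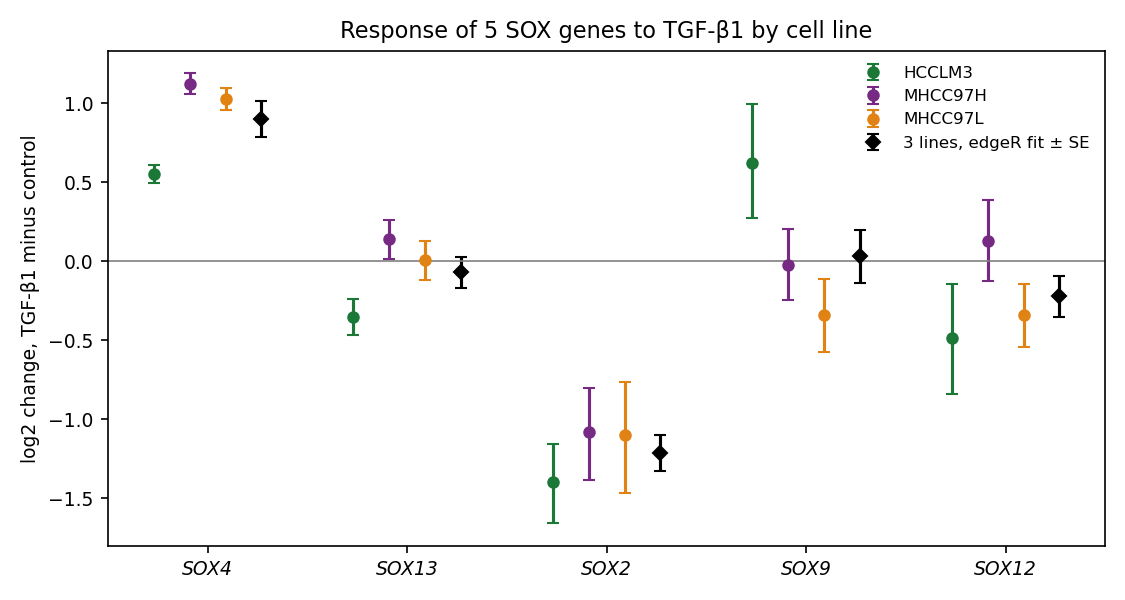
Log2 change, TGF-β1 minus control, of the 5 genes in HCCLM3 (green), MHCC97H (purple) and MHCC97L (orange) with 95% counting intervals, and over the 3 lines (black diamonds, edgeR fit ± SE). SOX4 lies above 0 and SOX2 below 0 in each line, while the lines fall on both sides of 0 for SOX9, SOX12 and SOX13.

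The next question is how SOX levels differ between the lines, for which the TGF-β1 and control library of a line were fitted together. HCCLM3 had more SOX2 and SOX4 RNA and less SOX9 and SOX12 RNA than either MHCC97 line. Against MHCC97L, 5 of 5 genes passed an adjusted p of 0.05 in HCCLM3 (3 higher, 2 lower; 29.8% of all genes passed), and against MHCC97H 4 of 5 did (2 higher, 2 lower; 27.2% of all genes). MHCC97H against MHCC97L gave 0 of 5 by edgeR, where 2.45% of all genes passed (1.37% higher and 1.09% lower). DESeq2 and limma-voom also gave 0, and 2 genes (SOX2 and SOX12) had an unadjusted p under 0.05 by edgeR. Shares of all genes under these other criteria were not counted. The comparisons share libraries and are not independent of each other, and the 5 genes were not picked blind to these data. Each line has 1 library per condition, so these p values measure the spread around the line and treatment terms. They do not rest on replicate libraries of a line in the same condition.

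SOX2 averaged 16.8 CPM over the libraries of HCCLM3, 10.1 CPM in MHCC97H and 7.03 CPM in MHCC97L. HCCLM3 was 2.33-fold above MHCC97L (log2 difference 1.22, SE 0.139, adjusted p of 0.000275 by edgeR) and 1.62-fold above MHCC97H (0.69, SE 0.134, adjusted p of 0.00507 by edgeR). MHCC97H and MHCC97L differed by 0.53 (SE 0.144), which did not pass (adjusted p of 0.111 by edgeR). The order HCCLM3, MHCC97H, MHCC97L was the same among the TGF-β1 libraries and among the controls.

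SOX4 averaged 277 CPM in HCCLM3, 201 CPM in MHCC97H and 172 CPM in MHCC97L, in the same order of lines as SOX2. MHCC97H and MHCC97L differed by 0.21 on the log2 scale (SE 0.135), which did not pass (adjusted p of 0.510 by edgeR). HCCLM3 exceeded MHCC97L by 0.76 (SE 0.136, adjusted p of 0.00500 by edgeR) and MHCC97H by 0.55 (SE 0.135, adjusted p of 0.0222 by edgeR) on the log2 scale. The gap was smaller among the TGF-β1 libraries, at 0.52 and 0.26, than among the controls, at 0.99 and 0.83.

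SOX9 averaged 6.98 CPM in HCCLM3, 14.7 CPM in MHCC97H and 14.2 CPM in MHCC97L. HCCLM3 was 2.03-fold below MHCC97L (log2 difference -1.02, SE 0.214, adjusted p of 0.00941 by edgeR) and lower than MHCC97H by a like amount (-1.07, SE 0.214, adjusted p of 0.00826 by edgeR). In the TGF-β1 libraries the differences from MHCC97L and MHCC97H were -0.56 and -0.78, against -1.52 and -1.42 in the controls.

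SOX12 averaged 7.28 CPM in HCCLM3, 11.5 CPM in MHCC97H and 18.6 CPM in MHCC97L, the reverse of the order of SOX2 and SOX4. HCCLM3 was 2.56-fold below MHCC97L (log2 difference -1.36, SE 0.163, adjusted p of 0.000352 by edgeR) and 1.61-fold below MHCC97H (-0.69, SE 0.169, adjusted p of 0.0158 by edgeR). The difference from MHCC97H was -0.98 among the TGF-β1 libraries, against -0.37 among the controls. The difference between MHCC97H and MHCC97L, -0.67 (SE 0.153), did not pass at an adjusted p of 0.0632 by edgeR. SOX13 averaged 64.2 CPM in HCCLM3, 49.9 CPM in MHCC97H and 46.1 CPM in MHCC97L. It was higher in HCCLM3 than in MHCC97L by 0.47 (SE 0.120, adjusted p of 0.0163 by edgeR), and the difference of 0.36 (SE 0.120) from MHCC97H did not pass (0.0555). Among the TGF-β1 libraries alone these differences were 0.29 and 0.11, against 0.65 and 0.60 among the controls.

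**Figure D4:**
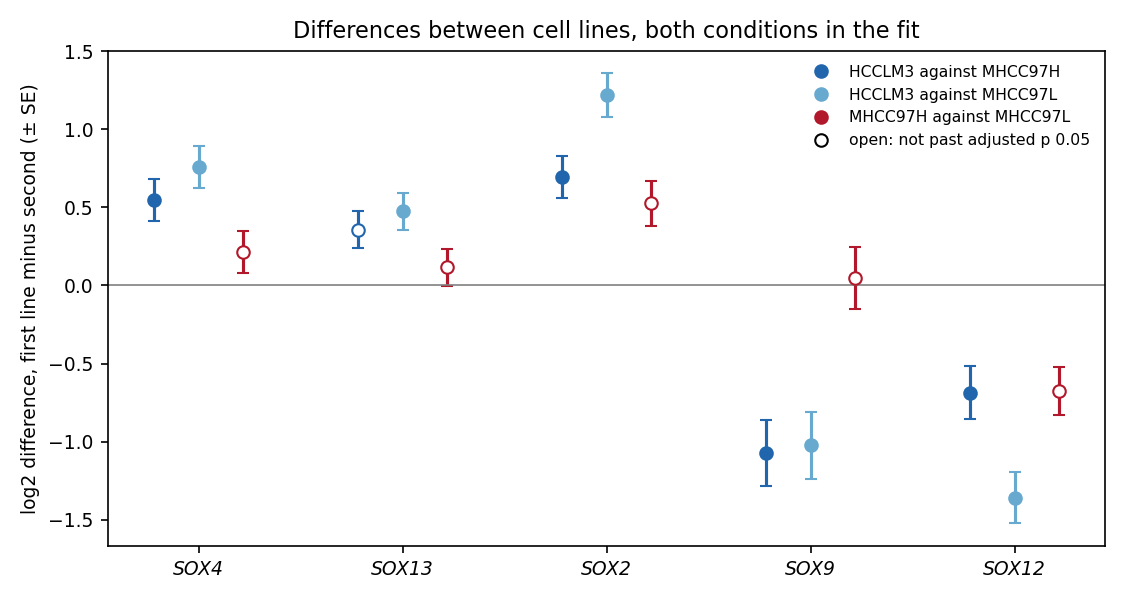
Log2 difference between lines, first line minus second, with SE from the edgeR fit over both conditions; filled points passed an adjusted p of 0.05 and open points did not. HCCLM3 lies above both MHCC97 lines for SOX4, SOX13 and SOX2 and below both for SOX9 and SOX12, with the SOX13 point against MHCC97H open.

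Levels of different genes were compared as CPM per kilobase of merged exon length. SOX4 was first in all 6 libraries, at 19.3 to 56.3 CPM per kilobase. SOX13 ran from 6.19 to 9.70 CPM per kilobase and was second in 5 libraries, and in the HCCLM3 control SOX2 stood level with it at 9.70 CPM per kilobase. SOX2 ranged from 1.77 to 9.70, SOX9 from 1.39 to 4.04 and SOX12 from 1.31 to 4.49 CPM per kilobase, and the order of these genes changed between libraries. SOX2 took the lowest place of the 5 in both MHCC97 lines with TGF-β1 and in the MHCC97L control, though in MHCC97H with TGF-β1 it stood beside SOX12 (2.57 against 2.61 CPM per kilobase). With the longest annotated transcript as the length, SOX13 had 12.8 to 20.1 CPM per kilobase and was second in all 6 libraries.

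All 14 other SOX genes listed, which leave out SRY, had an ID in the files, and 7 of them (SOX1, SOX3, SOX8, SOX11, SOX14, SOX17 and SOX21) were at 0 in every library, which allows up to 0.159 CPM. SOX5, SOX6, SOX7, SOX10 and SOX30 had at most 6 counts in a library. SOX11, the remaining group C gene, was thus not detected at this depth. SOX18, a group F gene of blood and lymph vessel development, was the only one with a mean of 1 CPM or more. It had 3.92, 3.44 and 2.85 CPM in the TGF-β1 libraries of HCCLM3, MHCC97H and MHCC97L, against 2.02, 2.76 and 2.05 CPM in their controls. Its groups did not overlap, but its log2 change of 0.57 (SE 0.193) did not pass, at an adjusted p of 0.0839 by the edgeR quasi-likelihood test after Benjamini-Hochberg adjustment. SOX15, of group G, averaged 0.606 CPM with TGF-β1 and 0.675 CPM in controls. Of these 14 genes 2 were tested and 0 passed by edgeR, where 14.4% of all genes tested passed. DESeq2 and limma-voom also gave 0. SOX18 alone (1 gene) had an unadjusted p under 0.05 by edgeR, a threshold whose share over all genes was not counted.

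**Figure D5:**
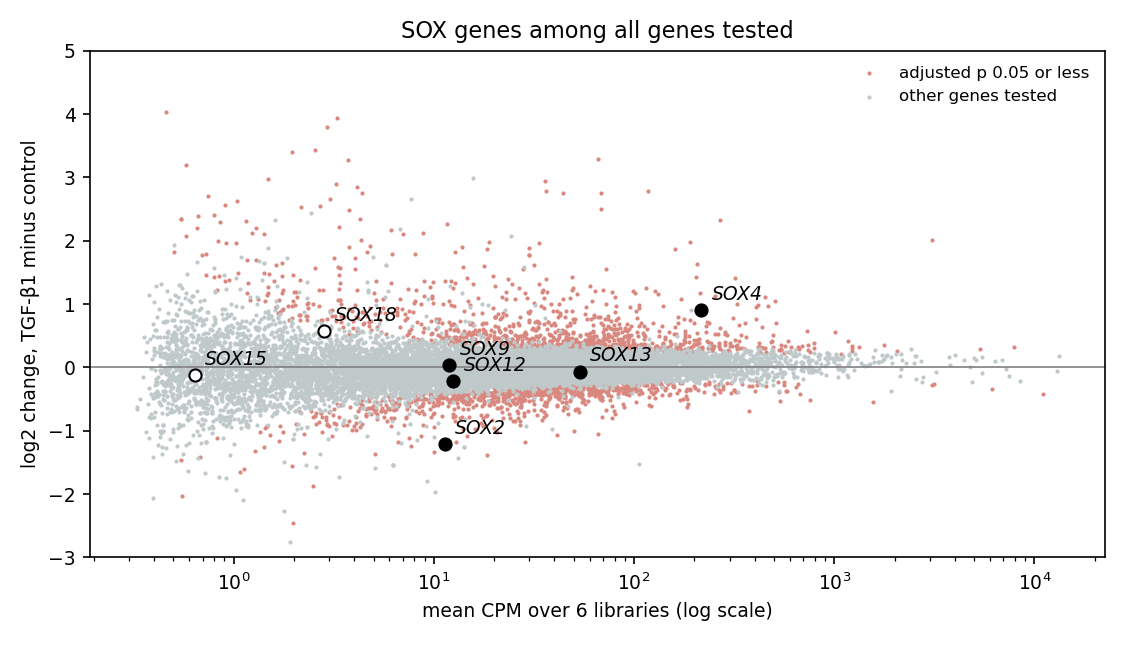
Log2 change, TGF-β1 minus control, against mean CPM (log axis) for the genes tested, of which 5 fall outside the vertical axis; red points passed an adjusted p of 0.05, black points are the 5 SOX genes and white points SOX18 and SOX15. SOX4 is the most abundant SOX gene and lies above 0, SOX2 lies below 0, with 52 genes lower.

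The nearest genes in the files on each side of the 5 loci were read to see whether neighbours moved too. Of these 10 genes 8 were tested, and 0 passed by edgeR (adjusted p of 0.200 to 0.978), where 14.4% of all genes tested passed. DESeq2 and limma-voom also gave 0, with 0 at an unadjusted p under 0.05, for which the share of all genes was not counted. With 8 genes tested, a count of 0 says little about neighbours. The gap to the SOX gene ran from 3.32 kb for ETNK2 to 1941 kb for KCNJ2. Beside SOX2, SOX4 and SOX9 it was 360 kb (CDKAL1) or more. Beside SOX2, DNAJC19 had a log2 change of -0.02 and ATP11B one of -0.13, and beside SOX4, CDKAL1 had -0.13, while the pituitary hormone gene PRL had at most 2 counts. Beside SOX9, the zinc transporter gene SLC39A11 had a change of 0.19 and the potassium channel gene KCNJ2 was at 0. SNRPE and ETNK2, beside SOX13, had changes of 0.06 and -0.01. NRSN2 and ZCCHC3, which flank SOX12, had changes of -0.01 and -0.12.

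Genes linked to each SOX factor were read from lists. Among SOX2 partners and pluripotency factors, 8 of 18 were tested, 0 rose and 1 fell by edgeR, where 7.79% and 6.65% of all genes tested rose and fell. At an unadjusted p under 0.05, 1 gene was higher and 3 were lower. DESeq2 had 0 risen and 1 fallen, and limma-voom had 0 in either direction. MYC was the gene that fell, with 142 ± 15.2 CPM with TGF-β1 and 169.9 ± 9.69 CPM in controls (SD, n = 3 lines), and its call was lost without MHCC97L or MHCC97H (adjusted p of 0.475 and 0.137 by edgeR). POU5F1, the main partner of SOX2, had a log2 change of 0.13 (SE 0.167). The list's median log2 change was 0.0089, beside -0.0029 over all genes tested.

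Of 20 bile duct and progenitor genes linked to SOX9, 13 were tested, 3 rose and 2 fell, with a median log2 change of -0.05, beside 7.79% and 6.65% over all genes tested. DESeq2 had 4 risen and 1 fallen, and limma-voom had 4 risen and 0 fallen, where they called 1423 and 1848 of all genes in either direction. The Notch target HES1 had 54.5 ± 6.91 CPM with TGF-β1 and 37.3 ± 4.91 CPM in controls (SD, n = 3 lines), a log2 change of 0.54 (SE 0.071) with an adjusted p of 0.00191 by edgeR. SOX4 is itself on this list, and SPP1, which encodes the secreted protein osteopontin, rose by 0.25 (SE 0.066). ONECUT2 and the adhesion gene CEACAM1 fell by 0.57 and 0.32 on the log2 scale. Leaving out MHCC97L or MHCC97H ended the calls of SPP1 (adjusted p of 0.488 and 0.0785 by edgeR), ONECUT2 (0.169 and 0.277; 0.175 by DESeq2 on all lines) and CEACAM1 (0.297 and 0.23). KRT7 and KRT19, the bile duct keratins, had changes of 0.90 (SE 0.249) and 0.22 (SE 0.090) and did not pass (adjusted p of 0.129 and 0.139 by edgeR). CEACAM1 did not have whole counts and overlaps LIPE-AS1, so its value is uncertain.

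Of 16 genes linked to SOX4, 15 were tested, 3 rose and 2 fell, with a median log2 change of 0.13, beside 7.79% and 6.65% over all genes tested. The transcription factor gene SNAI2 rose by 1.32 (SE 0.094), with 34.9 ± 6.84 CPM with TGF-β1 and 14.2 ± 4.17 CPM in controls (SD, n = 3 lines), VIM rose by 0.53 (SE 0.098) and the neuronal tubulin gene TUBB3 by 0.36 (SE 0.077). DICER1 and AGO1, of the small RNA pathway, fell by 0.36 and 0.32 on the log2 scale. Neither passed by DESeq2 (adjusted p of 0.0708 for DICER1 and 0.0901 for AGO1). EZH2, which encodes a histone methyltransferase, had a change of -0.08 (SE 0.070) and did not pass. The calls of TUBB3, DICER1 and AGO1 were lost without MHCC97L (adjusted p of 0.168, 0.257 and 0.324 by edgeR) and without MHCC97H (0.0713, 0.0842 and 0.128), and that of VIM without MHCC97L (0.102). TUBB3 did not have whole counts, and DICER1, AGO1 and VIM overlap genes on the opposite strand.

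Of 16 TCF/LEF, TLE and WNT pathway genes, 14 were tested, 1 rose and 2 fell, with a median log2 change of 0.04, beside 7.79% and 6.65% over all genes tested. TCF7, a partner of SOX13, rose by 0.36 (SE 0.082), a call lost without MHCC97L (adjusted p of 0.192 by edgeR). RNF43 and ZNRF3, which encode ligases that remove WNT receptors, fell by 1.17 and 0.50 on the log2 scale. None of these 3 genes had whole counts and each overlaps another gene, so the values are uncertain.

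The genes most like each SOX gene over the 6 libraries were found by the root mean square difference of log2 CPM profiles, each centred on its own mean, among 10408 genes that had a symbol and averaged at least 5 CPM. ATOH8 (0.179), which encodes a helix-loop-helix factor, and NFKBIZ (0.199), which encodes a nuclear regulator of NF-kB, were nearest to SOX2, whose own profile has a root mean square of 0.771. ATOH8 had 5.09, 4.77 and 3.56 CPM in the TGF-β1 libraries of HCCLM3, MHCC97H and MHCC97L, against 16.1, 10.6 and 6.27 CPM in their controls. CRIP2 (0.107), of the LIM domain family, and JUP (0.125) were nearest to SOX4, whose profile has 0.565. JUP, which encodes the junction protein plakoglobin, had 568, 519.8 and 438 CPM in the TGF-β1 libraries of HCCLM3, MHCC97H and MHCC97L, against 398, 265 and 249 CPM in their controls. PITPNM3 (0.087) and IRF5 (0.152) were nearest to SOX9, ELFN2 (0.145) and WTIP (0.161) to SOX12, and NBPF19 (0.048) and FAM220A (0.053) to SOX13, which varied least with a root mean square of 0.227. PITPNM3, WTIP and NBPF19 did not have whole counts.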

How the data were processed

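RNA was measured by sequencing of Trizol-extracted total RNA, per the labels' protocols. The authors deposited expected counts per Ensembl gene, 1 file per library. Build hg38, Cuffdiff 1.3.0, Cufflinks 2.2.1 and TopHat2 2.1.1 stand without roles in the submitters' processing notes. Which tool counted reads is not given in these sources. Symbols for 19574 of 22091 IDs came from the reference tables, and positions and exon lengths from GENCODE 29 (GRCh38).

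Counts were rounded, which moved a library total by at most 134. filterByExpr on the treatment groups left 14176 genes, scaled by TMM. TGF-β1 and line differences were tested in R 4.3.3 with edgeR 4.0.16 (robust quasi-likelihood F test, line and treatment as terms, 2 residual degrees of freedom, Benjamini-Hochberg over all genes tested). SE is the change divided by the root of its F statistic, so it also carries the variance shared across genes. Changes within a line are log2 CPM differences with a prior count of 2, and their 95% intervals are exact conditional binomial. limma 3.58.1 and DESeq2 1.42.0 served as alternatives, and the count fit was tested on simulated data.

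The labels pair the libraries of a line. Deviations from the condition means correlated across genes at 0.728 in HCCLM3, 0.456 in MHCC97H and 0.587 in MHCC97L. Members and lists were chosen with earlier results of these data known. The text names the 5 genes, other SOX genes with a mean of 1 CPM or more, nearest genes, up to 3 genes per list and direction by smallest p, and the 2 genes nearest in profile. Undetected SOX genes, POU5F1, EZH2, KRT7, KRT19 and SOX15 were named besides after their values were seen. A comparison of protein sequences was planned and was not run here.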

Additional observations from a re-analysis of the deposited data

Results flagged for a closer look

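SOX9 moved in opposite directions in 2 lines, with counting intervals that exclude 0 in each: its log2 change was 0.62 in HCCLM3 and -0.34 in MHCC97L, a difference of 0.96, which was not tested. SOX13 likewise had a log2 change of -0.35 in HCCLM3 and 0.14 in MHCC97H, a difference of -0.49, which was not tested. Its MHCC97H interval began at only 0.018, and with libraries scaled by their totals alone that change was 0.10. Each value rests on 1 library per line and condition.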

How the results depend on the processing

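The rise of SOX4 and the fall of SOX2 kept their direction under the 12 alternatives tried, and their calls under 11. Without the replicate block (no cell line term) the changes were 0.85 for SOX4 and -1.24 for SOX2 and neither passed, and the count of genes called fell to 10, against 2047 with the line term. With 1 line left out that count ran from 611 (without MHCC97L) to 3971 (without HCCLM3), with 981 without MHCC97H. The sign of SOX9 turned to -0.00061 with upper quartiles, -0.017 with library totals, -0.013 by limma-voom, -0.028 without the block and -0.18 without HCCLM3, and that of SOX13 to 0.070 without HCCLM3, none of them past the threshold. The cause was not tested.

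For lines, SOX13 in HCCLM3 against MHCC97H passed (0.35, adjusted p of 0.048 by edgeR) when only genes with a mean of 5 CPM were kept, its other alternatives reaching 0.0882; fewer genes were then tested. With the TGF-β1 libraries alone (chosen after seeing the data) and the control libraries alone, as values without a test, HCCLM3 minus MHCC97L was 0.52 and 0.99 for SOX4, -0.56 and -1.52 for SOX9 and 0.29 and 0.65 for SOX13, and 1.03 for SOX2 in the TGF-β1 libraries. HCCLM3 minus MHCC97H was 0.26 and 0.83 for SOX4, -0.78 and -1.42 for SOX9, -0.98 and -0.37 for SOX12 and 0.11 and 0.60 for SOX13, and 0.51 for SOX2 in the TGF-β1 libraries. MHCC97H minus MHCC97L was -0.44 and -0.91 for SOX12. With the longest transcript SOX13 averaged 14.9 CPM per kilobase, against 7.20 with merged exons. With library totals SOX4 changed by 0.49 in HCCLM3. Depth limits SOX2, SOX9 and SOX12, which had 100 to 478 counts per library.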
